A study of Arundinella anomala and Arundinella fluviatilis and Arundinella hirta with 8 samples.

Results

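The leaf library of Arundinella pubescens was set against those of its congeners Arundinella anomala and Arundinella fluviatilis, and the genes that set it apart from both were described. Of 26274 genes in the series, 22535 reached at least 1 FPKM (fragments scaled by the length of the sequence and the size of the library) in 1 or more of these 3 libraries and were compared. A gene was counted as standing apart where log2(FPKM + 1) in A. pubescens lay at least 2 units, or 4-fold on the FPKM + 1 scale, above or below both congeners. This held for 1880 genes: 1084 lay above both (4.81% of the genes compared) and 796 lay below both (3.53%). The measured values themselves chose these genes, so their sizes and numbers are descriptions.

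All plants were labelled wild type, and RNA came from mature whole leaves, taken as the third leaf. Plants were kept at 22 °C under 16 h of light and 8 h of dark. Each species was sequenced as 1 library, and the number of plants in it is not given in the sources used here. The series also holds 1 library each of 5 further grasses: Arundinella hirta, Arundinella nepalensis, Bothriochloa ischaemum, Capillipedium parviflorum and Imperata cylindrica. With 1 library per species there is no replicate error, no test was made, and a difference between species cannot be told apart from one between plants, leaves or libraries. The values of all species are listed under maize gene models, and the authors' program divides fragments among similar sequences by estimate. A value can therefore sit on one member of a gene family in one species and on its close relative in another, and a gene at 0 is given here as "listed at 0".

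All 8 species use C4 photosynthesis. In this pathway the mesophyll enzyme PEP carboxylase makes oxaloacetate, which is turned into malate or aspartate and carried to the bundle sheath. There a decarboxylase, NADP-malic enzyme in the chloroplast or PEP carboxykinase in the cytosol, releases CO2 next to Rubisco. Leaves of Arundinella carry, besides the bundle sheath, strands of similar cells that lie between the veins. In whole leaves, fewer cells of a type and less RNA per cell cannot be told apart.

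The 3 libraries were close in extent: the summed FPKM was 829005 in A. pubescens, 801499 in A. anomala and 813219 in A. fluviatilis, and 20607, 20468 and 20388 genes were listed above 0. The median compared gene differed from A. anomala by −0.05 and from A. fluviatilis by 0.10 log2 units. The 5 further libraries listed fewer genes above 0, from 18023 in A. nepalensis to 8142 in C. parviflorum. Of the compared genes, 26.9% were at 0 in A. nepalensis. In the rest the share ran from 54.9% in A. hirta to 66.7% in C. parviflorum, so a 0 there is common. Some leaf genes were abundant in A. pubescens. A Rubisco small subunit gene (GRMZM2G113033) was at 3209 FPKM and Rubisco activase GRMZM2G162200 at 521 FPKM. Their relatives GRMZM2G098520 and GRMZM2G162282 were at 0.35 and 27.4 FPKM. Among mesophyll genes, read in the whole leaf, the C4 PEP carboxylase gene (GRMZM2G083841) was at 7380 FPKM. Pyruvate orthophosphate dikinase GRMZM2G097457 was at 5580 FPKM, carbonic anhydrase GRMZM2G121878 at 1684 FPKM and NADP-malate dehydrogenase GRMZM2G129513 at 49.3 FPKM. Among bundle sheath genes, also read in the whole leaf, the C4 NADP-malic enzyme gene (GRMZM2G085019) was at 1695 FPKM. PEP carboxykinase GRMZM2G001696 was at 1.25 FPKM and the carrier DiT2 (GRMZM2G086258) at 6.84 FPKM. The deposited files carry no gene names. The enzyme names used for 29 maize gene models are recalled from general knowledge of maize and could not be checked here, and all other genes are given by identifier or by count.

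PEP carboxykinase gave the clearest pattern among the named enzymes, with different genes listed high in A. pubescens and in its congeners. The gene GRMZM2G001696 was at 2772 FPKM in A. anomala and 3160 FPKM in A. fluviatilis but at 1.25 FPKM in A. pubescens. The log2 differences were −10.27 and −10.46. This gene ranked 15 by level among all genes in A. anomala and 13 in A. fluviatilis, against 18301 in A. pubescens.

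The other PEP carboxykinase gene, GRMZM5G870932, showed the reverse. It was at 2259 FPKM in A. pubescens, where it ranked 34, and at 8.47 FPKM in A. anomala and 3.18 FPKM in A. fluviatilis. The log2 differences were 7.90 and 9.08. Summed over both genes, PEP carboxykinase stood at 2260 FPKM in A. pubescens, 2780 FPKM in A. anomala and 3163 FPKM in A. fluviatilis. The sums differed by −0.30 and −0.48 log2 units, far less than either gene alone. In each of the 3 libraries 1 gene held at least 99.7% of that sum.

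The same pair was read in the 5 libraries that played no part in choosing the genes. A. hirta resembled A. anomala and A. fluviatilis, with 2494 FPKM on GRMZM2G001696 and 69.1 FPKM on GRMZM5G870932. A. nepalensis had the order of A. pubescens at a much lower level, with 1.42 and 138.8 FPKM. GRMZM2G001696 was listed at 0 in the 3 other genera. GRMZM5G870932 was at 115.7 FPKM in C. parviflorum and 65.9 FPKM in I. cylindrica, and it was listed at 0 in B. ischaemum. Each of these 2 genes is listed through 1 protein model, so summing over models did not change these values. The model listed for GRMZM2G001696 is P02, and whether others were left out earlier is not known here. Whether the leaves transcribe different genes, or transcripts of 1 gene were placed on different maize relatives, was not tested.

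**Figure D1:**
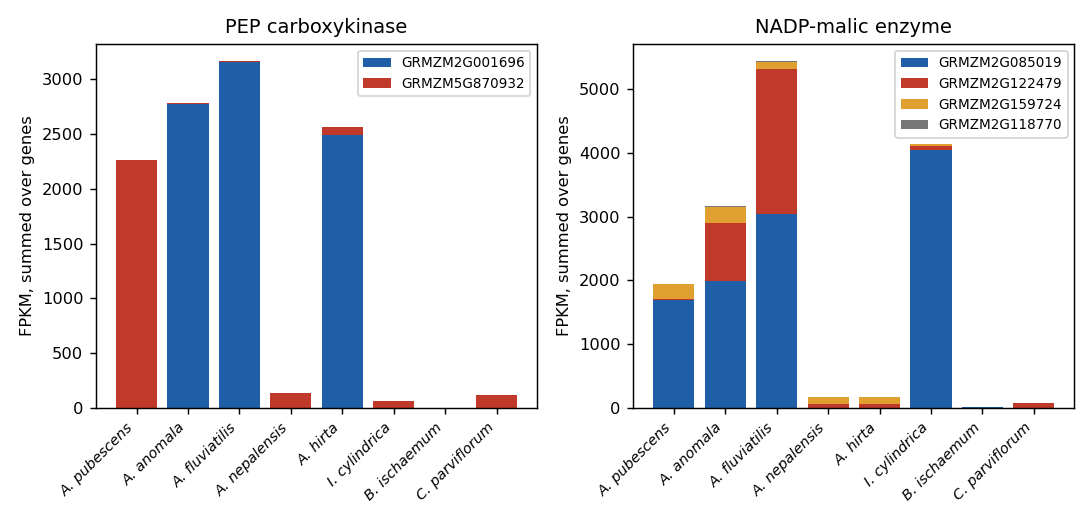
Stacked bars give FPKM of the genes of PEP carboxykinase (left) and NADP-malic enzyme (right) in each of the 8 libraries, 1 library per species, each colour a maize gene model. The PEP carboxykinase bar of A. pubescens, 2260 FPKM, is made of GRMZM5G870932, and those of A. anomala and A. fluviatilis are made of GRMZM2G001696.

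NADP-malic enzyme showed no such exchange. The C4 gene GRMZM2G085019 was at 1695 FPKM in A. pubescens, 1985 FPKM in A. anomala and 3043 FPKM in A. fluviatilis, with log2 differences of −0.23 and −0.84. A further family member, GRMZM2G122479, was at 21.3 FPKM in A. pubescens against 915 FPKM in A. anomala and 2280 FPKM in A. fluviatilis. It lay below both, by −5.36 and −6.67 log2 units. It was also low in the other 5 libraries, between 8.27 FPKM in B. ischaemum and 72.1 FPKM in C. parviflorum, so the high values were those of A. anomala and A. fluviatilis.

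The remaining members of this family did not stand apart. GRMZM2G159724 was at 229 FPKM in A. pubescens, 259 FPKM in A. anomala and 113 FPKM in A. fluviatilis, and GRMZM2G118770 was at most 3.69 FPKM in all 3. Over the 4 genes the family stood at 1949, 3161 and 5439 FPKM, and A. pubescens differed from A. anomala by −0.70 and from A. fluviatilis by −1.48 log2 units, short of the 2 units used here. The C4 gene supplied 86.9% of the sum in A. pubescens, 62.8% in A. anomala and 56.0% in A. fluviatilis.

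The protein models of the C4 NADP-malic enzyme gene were placed differently too. In A. pubescens all 1695 FPKM sat on the first model and the other was listed at 0. In A. anomala the first held 172 FPKM and the other 1813 FPKM, and in A. fluviatilis they held 2276 and 767 FPKM. The gene sum hides this difference.

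NADP-malate dehydrogenase, which reduces oxaloacetate to malate in the chloroplast, was the other enzyme well below both congeners. Its gene GRMZM2G129513 was at 49.3 FPKM in A. pubescens, 852 FPKM in A. anomala and 2410 FPKM in A. fluviatilis. The log2 differences were −4.08 and −5.58, and it ranked 76 and 20 in the congeners against 2914 in A. pubescens. A. nepalensis held 257.8 FPKM and C. parviflorum 588 FPKM, and the gene was at 0 in the remaining 3 libraries. No relative of this gene was on the list, so its family could not be summed.

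Aspartate is made by aspartate aminotransferase, an alternative to malate as transported acid. Its gene GRMZM2G094712 was at 96.1 FPKM in A. pubescens, the same as the 96.0 FPKM of A. fluviatilis, against 195 FPKM in A. anomala. Alanine aminotransferase (GRMZM2G088064), which returns amino groups in the aspartate route, was at 187 FPKM against 413 and 653 FPKM. Neither reached 2 units from either congener.

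Among the carbon-fixing enzymes, 1 of 6 PEP carboxylase genes lay above both. GRMZM2G473001 was at 765 FPKM in A. pubescens, 148 FPKM in A. anomala and 84.8 FPKM in A. fluviatilis, with log2 differences of 2.36 and 3.16. The difference rested on 1 of its 2 protein models, at 710 FPKM against 73.4 and 44.0 FPKM. The other model was at 55.2 FPKM, between the 74.6 FPKM of A. anomala and the 40.8 FPKM of A. fluviatilis. In the 5 libraries not used for the choice this gene was between 11.6 and 85.9 FPKM.

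The C4 PEP carboxylase gene did not stand apart: at 7380 FPKM it lay between the 2285 FPKM of A. anomala and the 24807 FPKM of A. fluviatilis. GRMZM2G074122, a further member, was at 51.9 FPKM in A. pubescens and 52.7 FPKM in A. fluviatilis against 1181 FPKM in A. anomala. GRMZM2G069542 was at 39.3, 98.0 and 79.2 FPKM in A. pubescens, A. anomala and A. fluviatilis. GRMZM2G110714 and GRMZM2G082780 were at most 16.5 FPKM in all 3 libraries. The summed family, at 8260 FPKM, differed by 1.15 log2 units from A. anomala and by −1.60 from A. fluviatilis.

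The enzymes around PEP carboxylase kept within 2 units of at least 1 congener. PEP carboxylase kinase (GRMZM2G178074), which phosphorylates the enzyme in the light, was at 17.4 FPKM against 89.7 FPKM in A. anomala and 32.3 FPKM in A. fluviatilis. Carbonic anhydrase, which supplies it with bicarbonate, was at 1684 FPKM on GRMZM2G121878, between 1083 and 6685 FPKM in the congeners. A further carbonic anhydrase gene, GRMZM2G348512, was at 6.61 FPKM against 17.8 and 14.4 FPKM.

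Pyruvate orthophosphate dikinase regenerates PEP in the mesophyll. Its abundant gene GRMZM2G097457 was at 5580 FPKM in A. pubescens, 12344 FPKM in A. anomala and 21851 FPKM in A. fluviatilis, with log2 differences of −1.15 and −1.97. The last value lies just short of the threshold, and it was −2.13 under median-of-ratios scaling and −1.91 under quantile normalization. Taking only the largest protein model of each gene it was −1.02, since A. fluviatilis held 10505 and 11347 FPKM on 2 models of this gene. The other gene, GRMZM2G306345, was at 3.66 FPKM, against 6.76 and 3.32 FPKM. The regulatory protein that switches the enzyme on and off (GRMZM2G131286) was at 187 FPKM in A. pubescens and 461 FPKM in A. anomala, and it was listed at 0 in A. fluviatilis.

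The chloroplast transporters did not stand apart. DiT1 (GRMZM2G383088), which exchanges oxaloacetate and malate, was at 177 FPKM, between the 122 FPKM of A. anomala and the 829 FPKM of A. fluviatilis. DiT2 (GRMZM2G086258), a dicarboxylate carrier, was at 6.84 FPKM against 4.95 and 7.59 FPKM. The triose phosphate translocator (GRMZM2G070605) was highest in A. pubescens, at 3538 FPKM against 1945 and 2241 FPKM, a log2 difference of at most 0.86. GRMZM2G174107, the PEP/phosphate translocator, was at 14.5 FPKM against 24.8 and 24.3 FPKM.

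Rubisco and its activase did not stand apart either. The small subunit gene GRMZM2G113033 was at 3209 FPKM against 1380 FPKM in A. anomala and 2359 FPKM in A. fluviatilis, with log2 differences of 1.22 and 0.44. The other small subunit gene, GRMZM2G098520, was at 0.35 FPKM, listed at 0 in A. anomala and at 5.31 FPKM in A. fluviatilis. Rubisco activase, which clears inhibitors from Rubisco, was at 521 FPKM on GRMZM2G162200, between 152 and 1581 FPKM. Its other gene, GRMZM2G162282, was at 27.4 FPKM against 1.48 and 8.57 FPKM, so that it lay 3.52 and 1.57 log2 units higher.

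Of the 29 named gene models, 2 thus lay above both congeners, 3 below both and 24 did neither. The 5 called genes are 1 in each direction for PEP carboxykinase, 1 PEP carboxylase, 1 NADP-malic enzyme and NADP-malate dehydrogenase. Over all compared genes 8.34% stood apart, and with so few genes the list is not called different from them. The median log2 difference of the list was −0.17 from A. anomala and −0.71 from A. fluviatilis, beside the all-gene medians of −0.05 and 0.10. These list medians include genes at 0 in 1 congener, whose differences rest on the pseudocount.

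**Figure D2:**
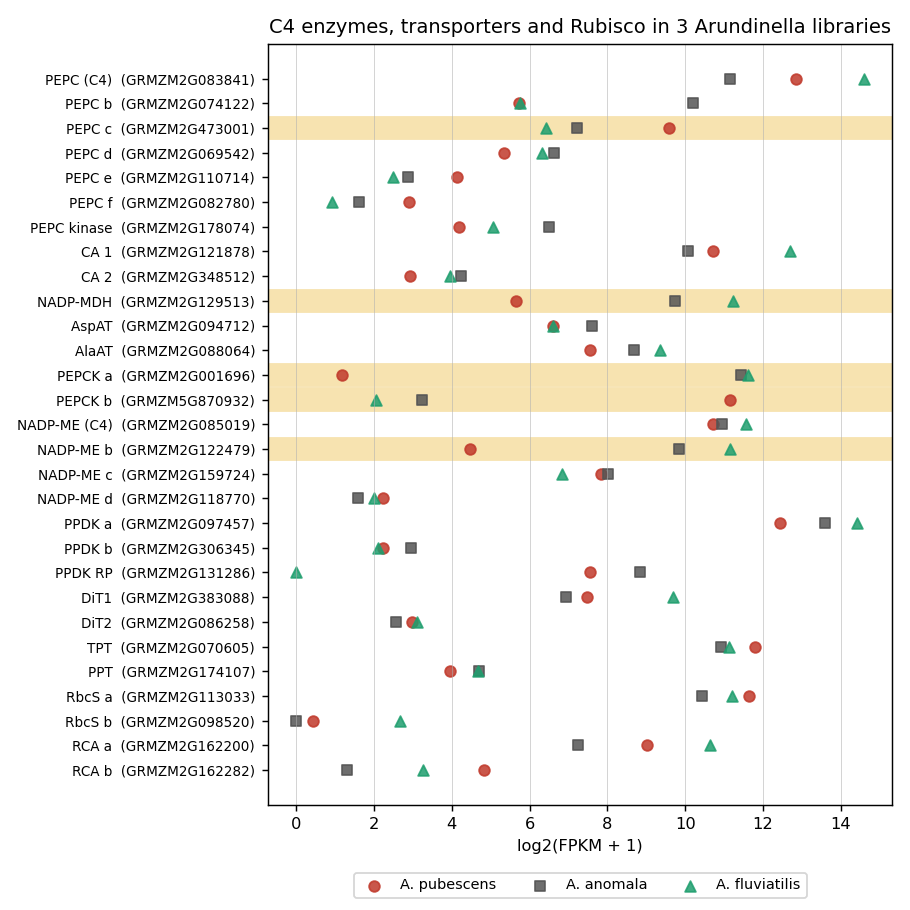
Points give log2(FPKM + 1) of 29 maize gene models recalled as C4 enzymes, transporters, Rubisco small subunit and activase, in 1 library each of A. pubescens, A. anomala and A. fluviatilis. Shaded lines mark the 5 genes at least 2 units above or below both congeners in A. pubescens, among them PEP carboxykinase GRMZM2G001696 (1.25 FPKM) and GRMZM5G870932 (2259 FPKM).

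Beyond the named enzymes, the genes above both congeners were mostly of moderate level. In A. pubescens they ranged from 3.00 to 14101 FPKM with a median of 15.5. Of the 1084 genes, 393 were under 10 FPKM, 590 were between 10 and 100, 89 between 100 and 1000, and 12 at 1000 or more. The 10 highest held 45.6% of their summed FPKM. The group made up 10.1% of all FPKM in A. pubescens, against 0.690% in A. anomala and 0.556% in A. fluviatilis. The rule makes this share low in both congeners by construction. In the libraries not used for the choice it was 11.5% in B. ischaemum, 5.33% in C. parviflorum and 5.22% in I. cylindrica. A. nepalensis had 3.7% and A. hirta 1.58%.

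The genes below both mirrored this. By the lower of their congener values, 306 of 796 were under 10 FPKM, 424 between 10 and 100, 62 between 100 and 1000 and 4 at 1000 or more. They made up 8.20% of all FPKM in A. anomala and 7.65% in A. fluviatilis but 0.229% in A. pubescens, again by construction. A. hirta had 6.82%, B. ischaemum 3.93%, I. cylindrica 3.69%, C. parviflorum 3.62% and A. nepalensis 3.32%. Among strongly listed genes, 8.59% of the 1176 genes of at least 100 FPKM in A. pubescens lay above both. Of the 773 genes of at least 100 FPKM in both congeners, 8.54% lay below both. The first set needs a high value in A. pubescens alone and the other in both congeners, so these shares are not directly comparable.

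Most of these genes were listed at 0 on their low side. Of the genes above both, 582 (53.7%) were listed at 0 in both congeners, 187 in 1 of them, and 315 (29.1%) were above 0 in all 3 libraries. Of the genes below both, 520 (65.3%) were listed at 0 in A. pubescens and 276 (34.7%) were above 0 in all 3. The same rule with A. anomala set apart gave 389 of 677 genes above and 317 of 435 below listed at 0 in this way. With A. fluviatilis set apart it gave 306 of 672 and 390 of 751. Where all 3 values were above 0, the median of the smaller log2 difference was 2.45 for the genes above and 2.47 for those below. A listing at 0 was not limited to weak genes. Of the 582 genes at 0 in both congeners, 23 were at 100 FPKM or more in A. pubescens. Of the 520 genes at 0 in A. pubescens, 29 were at 100 FPKM or more in both congeners. Matching counts with a congener set apart were not computed.

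The extremes are given by identifier, since the files name none of them. GRMZM2G072280 was at 3350 FPKM in A. pubescens and listed at 0 in A. anomala and A. fluviatilis. In the libraries not used for the choice A. nepalensis held 1909 FPKM and the other 4 libraries were at 0, so that 2 of 8 libraries listed it. GRMZM2G125850 was at 1311 FPKM in A. pubescens and listed at 0 in both congeners. It was at 2918 FPKM in B. ischaemum, 1848 FPKM in C. parviflorum and 76.8 FPKM in A. nepalensis, and it was at 0 in I. cylindrica and A. hirta.

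On the low side, GRMZM2G070912 was listed at 0 in A. pubescens, against 1270 FPKM in A. anomala and 3933 FPKM in A. fluviatilis. It was listed at 0 in all 5 other libraries too. In these, 26.9% (A. nepalensis) to 66.7% (C. parviflorum) of all compared genes were at 0. The next largest difference was the PEP carboxykinase gene GRMZM2G001696 described above.

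The weakest gene counted as above was at 3.00 FPKM and listed at 0 in both congeners, and the nearest one left out was at 10.19 FPKM, against 1.80 FPKM in A. anomala and 0 in A. fluviatilis. On the low side, a gene at 5.09 FPKM in A. pubescens, 23.4 FPKM in A. anomala and 155.4 FPKM in A. fluviatilis lay 2 units below A. anomala and was counted. The nearest one left out was at 1.90 FPKM, against 12.95 and 10.56 FPKM. Within 0.1 units of the threshold, 154 genes were counted and 167 were not.

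**Figure D3:**
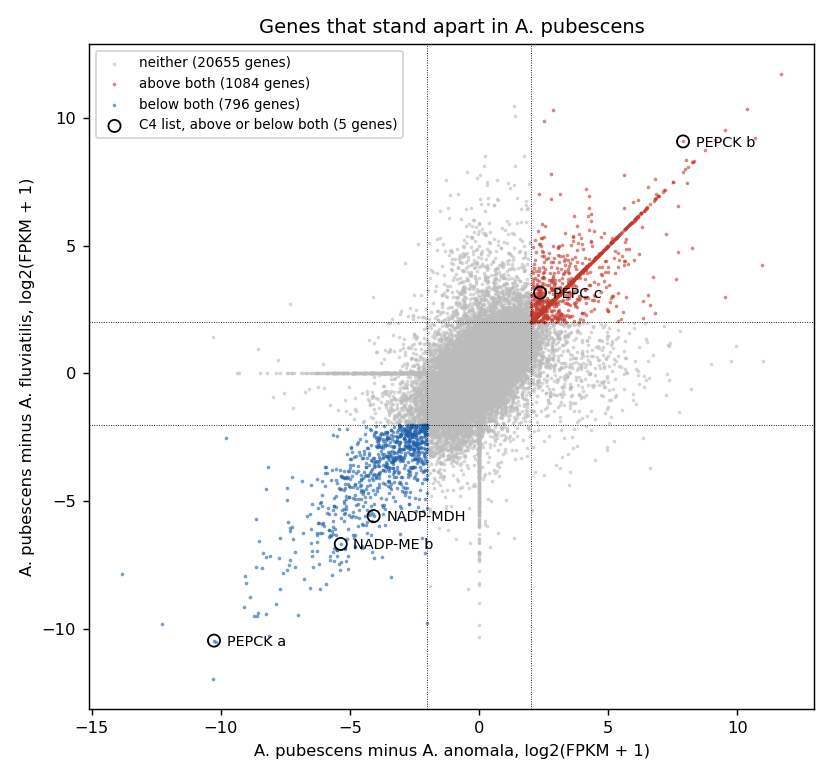
Each point is 1 of 22535 genes, placed by the difference in log2(FPKM + 1) of A. pubescens from A. anomala (horizontal) and from A. fluviatilis (vertical), with dotted lines at 2 units either way. The 1084 red genes lie above both and the 796 blue genes below both. Genes listed at 0 in both congeners form the red diagonal, and circles mark the 5 named enzymes that stand apart.

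The same count was made with each congener in turn as the library set apart. A. anomala gave 677 genes above (3.00%) and 435 below both others (1.93%), 4.93% of the genes compared in all. A. fluviatilis gave 672 above (2.98%) and 751 below (3.33%), or 6.31% in all. A. pubescens, at 8.34%, had the most. It led A. fluviatilis only with the genes at 0 included, while A. anomala had the fewest either way. Among the 16789 genes above 0 in all 3 libraries, A. pubescens set 591 apart (3.52%), A. fluviatilis 601 (3.58%) and A. anomala 269 (1.60%). The directions differed among these genes. A. pubescens had 315 above (1.88%) against 240 (1.43%) in A. fluviatilis, and 276 below (1.64%) against 361 (2.15%). Across all compared genes, which are not independent, Spearman's rho was 0.683 between A. pubescens and A. anomala, 0.653 between A. pubescens and A. fluviatilis and 0.740 between the congeners.

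The counts for A. pubescens depend on needing both congeners. Against A. anomala alone, 1823 genes lay above (8.09%) and 1850 below (8.21%). Against A. fluviatilis alone, 2351 lay above (10.4%) and 1890 below (8.39%).

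**Figure D4:**
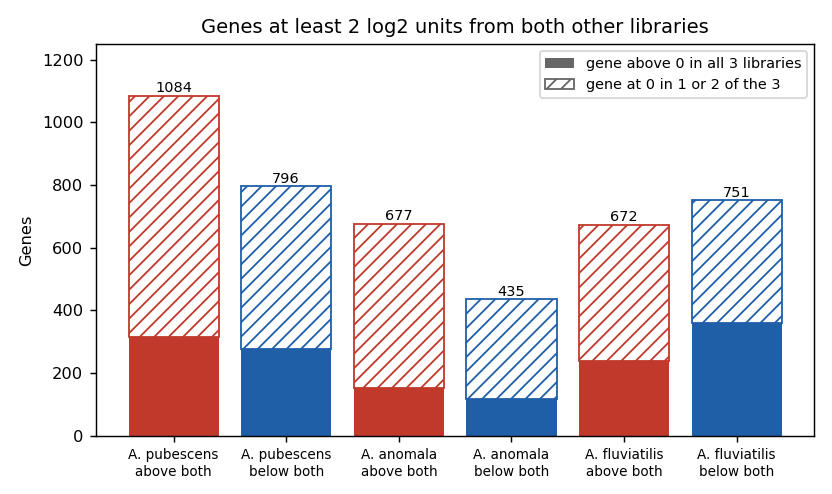
Bars count the genes at least 2 log2 units above (red) or below (blue) both other libraries, for each of the 3 Arundinella libraries in turn. Filled parts are genes above 0 in all 3 libraries and hatched parts are genes at 0 in 1 or 2 of them. A. pubescens has 1084 and 796 genes in all, of which 315 and 276 were above 0 in all 3.

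The 5 libraries that the rule did not use were read for the same genes. Genes above both in A. pubescens reached 1 FPKM in A. nepalensis in 43.8% of cases, in A. hirta in 26.2%, in B. ischaemum in 25.6%, in C. parviflorum in 20.4% and in I. cylindrica in 20.3%. Over all compared genes the shares were 68.7%, 39.4%, 33.8%, 28.4% and 39.7%; these were higher in each of the 5. The choice requires low values in both congeners, and the bearing of that on these shares was not tested. At least 1 of the 5 libraries listed 798 of the 1084 genes (73.6%). This held for 484 of 677 genes above in A. anomala and 520 of 672 in A. fluviatilis. The matching share over all compared genes was not computed. Of the 1084 genes, 230 (21.2%) were at 0 in all 7 other libraries. The same share was 23.0% (156 of 677) for A. anomala and 18.9% (127 of 672) for A. fluviatilis.

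Genes below both in A. pubescens reached 1 FPKM in 60.8% of cases in A. nepalensis, 44.8% in A. hirta, 34.0% in I. cylindrica, 32.3% in B. ischaemum and 26.6% in C. parviflorum. Among the 5, only A. hirta was above its share over all compared genes. Of the 520 genes listed at 0 in A. pubescens, A. nepalensis listed 305 (58.7%), against 73.1% of all compared genes. All 7 other libraries listed 16 of the 520. The same count was 5 of 317 genes for A. anomala and 8 of 390 for A. fluviatilis. A matching share over all compared genes was not computed.

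A. nepalensis is the further Arundinella library with the most genes listed. Its value lay nearer to A. pubescens than to the mean of both congeners in 301 of the 1084 genes above (27.8%) and in 406 of the 796 genes below (51.0%). A listing at 0 in A. nepalensis counts towards the congeners in the first group and towards A. pubescens in the other. With all 4 libraries above 0, the shares were 37.9% of 227 genes above and 42.1% of 214 genes below. In the same way, the shares of genes above were 15.7% of 197 in A. hirta, 20.5% of 156 in B. ischaemum, 18.6% of 140 in C. parviflorum and 22.0% of 118 in I. cylindrica. The shares of genes below were 39.4% of 170, 53.0% of 132, 66.4% of 122 and 74.6% of 130. A. nepalensis thus had the highest share for the genes above, and the 3 other genera had higher shares for the genes below. A matching share over all compared genes, or for the genes set apart in the congeners, was not computed. Over all compared genes, Spearman's rho of A. nepalensis was 0.562 with A. pubescens, 0.579 with A. anomala and 0.564 with A. fluviatilis. Without the demand for values above 0, the shares of genes below were 66.0% in A. hirta, 78.8% in B. ischaemum, 83.4% in C. parviflorum and 77.9% in I. cylindrica.

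**Figure D5:**
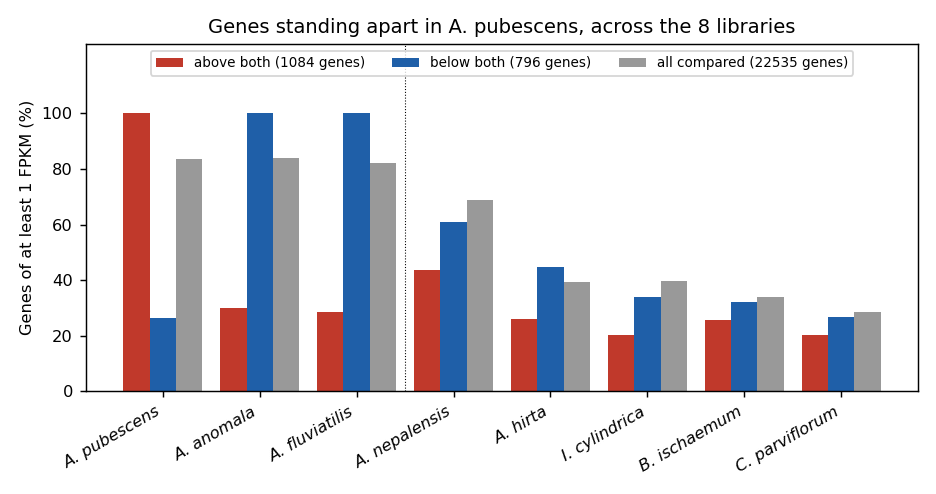
Bars give the share of genes (%) that reached 1 FPKM, library by library, for the 1084 genes above both congeners in A. pubescens (red), the 796 below both (blue) and all 22535 compared genes (grey). The 3 libraries left of the dotted line chose the genes. Among the others, A. nepalensis has the highest share of each group, with 43.8% of the genes above and 60.8% of those below. It also has the highest share of all compared genes, 68.7%.

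Some differences lay between protein models of the same gene. Of the genes set apart, 485 (25.8%) had more than 1 protein model, against 31.3% of all compared genes. In 142 genes, 1 model lay above both congeners and another below both. They were 2.01% of the 7060 compared genes with more than 1 model. Opposite differences can offset each other in a sum, and 3 of the 142 stood apart as a gene sum. The same exchange between models was found in 102 genes for A. anomala and 102 for A. fluviatilis.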

How the data were processed

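Leaf RNA of 8 grass species was sequenced, 1 library per species. The authors deposited FPKM values on 36698 maize protein models; RSEM made them, per the submitters' processing notes, and its version, the aligner and the reference sequences are not stated there. Depth is unknown, so no interval for counting error is given. Columns were matched to species by name. Protein models were summed to 26274 genes and compared on log2(FPKM + 1), with a minimum of 1 FPKM in 1 of 3 libraries and a difference of at least 2, exact ties included. The counting step was tested on simulated data. Lists that need gene descriptions could not be run. The genes and lists were chosen with earlier results of these data known. Named were all members of the enzyme list and the 2 largest differences in each direction. The alternatives were other pseudocounts, filters, thresholds and scalings, other handling of protein models, and each congener alone. Python 3.11.15, pandas 2.3.3, numpy 2.4.6 and matplotlib 3.10.9 were used.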

Additional observations from a re-analysis of the deposited data

How the results depend on the processing

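No paired analysis was possible because each species has 1 library and no replicate number. Counts are given as genes above, then below. With a pseudocount of 0.1 they were 1843 and 1762 for A. pubescens, 1226 and 1147 for A. anomala, and 1193 and 1575 for A. fluviatilis. With a pseudocount of 10 they were 232 and 166, 131 and 82, and 202 and 150. Among genes above 0 in all 3 libraries they were 315 and 276, 151 and 118, and 240 and 361. A threshold of 1 unit gave 3065 and 2311, 2336 and 1261, and 2183 and 2442. A threshold of 3 units gave 493 and 406, 310 and 253, and 266 and 320. With each protein model on its own they were 2020 and 1252, 1463 and 768, and 1294 and 1180. A minimum of 10 FPKM left 691 genes above for A. pubescens and 426 for A. anomala. Against A. anomala alone A. pubescens had 1823 and 1850, and against A. fluviatilis alone 2351 and 1890. Fewer genes or a changed threshold account for the filter and threshold settings by construction; otherwise the cause was not tested. Median-of-ratios, quantile and equal-sum scaling, no filter, and the highest protein model per gene left all 6 counts within 1.5 times. The calls of the 29 enzyme genes were the same under both pseudocounts, the 3 scalings and the highest protein model. Single differences from 1 congener passed 2 units in 7 cases and dropped under it in 3, over these genes and settings. The median gene difference from A. fluviatilis was 0.10 as deposited and 0.07 under equal-sum scaling. It became 0 under median-of-ratios scaling and quantile normalization, which align the columns by construction. The shares of genes nearer A. pubescens in A. nepalensis stayed within 1.5 times. The summed PEP carboxykinase difference ranged from −0.19 to −0.79 against A. anomala and from −0.48 to −0.97 against A. fluviatilis. These family alternatives, the counts for the congeners and the shares in A. nepalensis under other settings were added after seeing the data.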
